A study of Mus musculus with 11 samples.

Results

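The response of cultured cardiomyocytes to platelet-derived growth factor BB (PDGF-BB) was examined in 7 arrays of 11 in the series, 3 of PDGF-BB-treated cells and 4 of untreated control cells. The members were taken by their treatment labels. Treated HL-1 cells received PDGF-BB (100 ng/mL) for 23 h, and control cells were kept for the same time with no growth factor. Both groups were held in serum-free medium during the treatment, after culture with ultracentrifuged serum and, per the study's methods, norepinephrine. HL-1 is a line of mouse atrial cardiomyocytes, so every array comes from the same line, and each array holds the RNA of a single flask. The study describes a further PDGF-BB flask, whose cells it treats as an outlier, and that sample is not analysed here. The other 4 arrays of the series, of cells that received TGF-β2 (10 ng/mL), entered the fit for a shared estimate of the spread. Of 25697 probes on the Illumina MouseRef-8 array, 12278 had a detection p under 0.05 on at least 3 of the 7 arrays and were tested. A transcript below is 1 probe, and these probes cover 8351 genes.

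PDGF-BB is a dimer of B chains that binds the receptor tyrosine kinases PDGFRβ and PDGFRα. The activated receptors recruit adaptors and switch on the RAS-ERK and PI3K-AKT pathways, which induce immediate-early transcription factors within the first hours, then feedback phosphatases and cell cycle genes. In the heart the factor is best known for its action on fibroblasts, pericytes and smooth muscle cells. The comparison asks which of these transcripts differed in the cardiomyocytes when the cells were collected.

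The 2 groups had similar array measures. The mean signal before normalization was 451, 670 and 659 in the PDGF-BB-treated cells, against 652, 589, 716 and 694 in the control cells (exact two-sided permutation test, p = 0.43, for which the smallest possible value is 0.0571). PDGF-BB 1 had the lowest signal and, among the 11 arrays, the lowest weight when arrays were weighted by their fit (0.43). The arrays lay on 2 chips, with PDGF-BB 1, control 1 and control 2 on chip 1 and the others on chip 2. Of 17 cardiomyocyte markers, 15 were detected on all 7 arrays, and Ryr2, the calcium release channel of the sarcoplasmic reticulum, on none. Of the markers of other cell types, 14 of 19 fibroblast markers (Col1a1, Col1a2, Dcn and Postn among them), 9 of 14 endothelial markers (Cdh5 and Vwf among them) and 7 of 11 leukocyte markers were detected on no array. Vim, Fbln1 and Ddr2 of the fibroblast list and Egfl7 of the endothelial list were detected on all 7 arrays, and Cd3e and Lst1 of the leukocyte list on 2 of 3 PDGF-BB and 4 of 4 control arrays. Kdr was detected on 2 of 3 PDGF-BB and 2 of 4 control arrays, Pecam1 on 1 and 3, and Eng on 1 and 2. Ptprc and Esam were detected on no PDGF-BB array and on 2 of 4 control arrays. Col3a1 and Cd14 were detected on 1 array of each group, and Tcf21 on 1 control array. Of 10 smooth muscle markers 7 were detected on all 7 arrays, with Myh11 and Cnn1 on none. The summed level of each of the 5 marker lists overlapped between the groups (exact p = 0.40 or higher for each).

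No transcript passed the test between PDGF-BB-treated and control cells. Of 12278 transcripts, 0 (0%) passed an adjusted p under 0.05 in limma, the linear model fitted across all transcripts, and the lowest adjusted p was 0.752. At an unadjusted p under 0.05 there were 394 transcripts (3.21%), 160 higher (1.3%) and 234 lower (1.91%) with PDGF-BB. In this fit, without blocks or weights, the share of 3.21% is not above the 0.05 that this threshold passes where nothing differs. With the chip as a block the count was 848, with 348 higher and 500 lower, which is above that share, and 0 were called (lowest adjusted p = 0.545). The counts were also above it with a block for part of a chip (1096), a replicate block (796) and array weights (944), each with 0 called. Leaving out PDGF-BB 1, which had the lowest signal, left 194 transcripts at an unadjusted p under 0.05, and leaving out control 2, control 3 or PDGF-BB 2 left 706, 233 or 663. A single transcript, Rps23rg1, was called when control 4 was left out (adjusted p = 0.0421, limma). It was detected on all 3 PDGF-BB and 0 of 4 control arrays, so it entered the test only through the group where it is high, and the call is a description. Large fitted log2 fold changes were few, since 15 transcripts (0.122%) reached a size of 1, of which 4 were higher and 11 lower, and 96.3% of all were under 0.5 in size. That number was 3 without PDGF-BB 1, 56 without PDGF-BB 2, 48 without PDGF-BB 3, 66 without control 2 and 9 without control 3. The median log2 fold change was 0.01 and 5% of the transcripts lay below -0.39 and 5% above 0.33. The median standard error of 0.19 sets what could be seen. The 95% interval, not adjusted for the number of transcripts, lay inside a 2-fold difference in both directions for 93.0% of them and inside a 1.5-fold difference for 53.1%. A call after adjustment needs more than this. Rchy1, fitted at 2.53-fold, had an adjusted p of 0.9999 in limma, so a fitted difference above 2-fold also went uncalled. It was the largest fitted difference, and its true size is not known.

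The arrays of both groups were as far from each other as flasks of the same group. The standard deviation of the log2 differences between 2 arrays had a median of 0.39 over the 12 pairs of a PDGF-BB and a control array (0.32 to 0.62), 0.49 over the 3 pairs of PDGF-BB arrays (0.34 to 0.53) and 0.42 over the 6 pairs of control arrays (0.35 to 0.48). PDGF-BB 2 and 3, which share a chip, were the closest pair of treated flasks. Between the 2 chips, the differences of PDGF-BB from control had a Pearson r of 0.27 across the 12278 transcripts (Spearman rank correlation 0.26), with 0.44 among transcripts above the median signal and 0.20 among those below it. Each chip's difference uses its own arrays but all were normalized together, and transcripts are not independent replicates. On both chips, 7387 transcripts (60.2%) lay on the same side of 0.

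**Figure D1:**
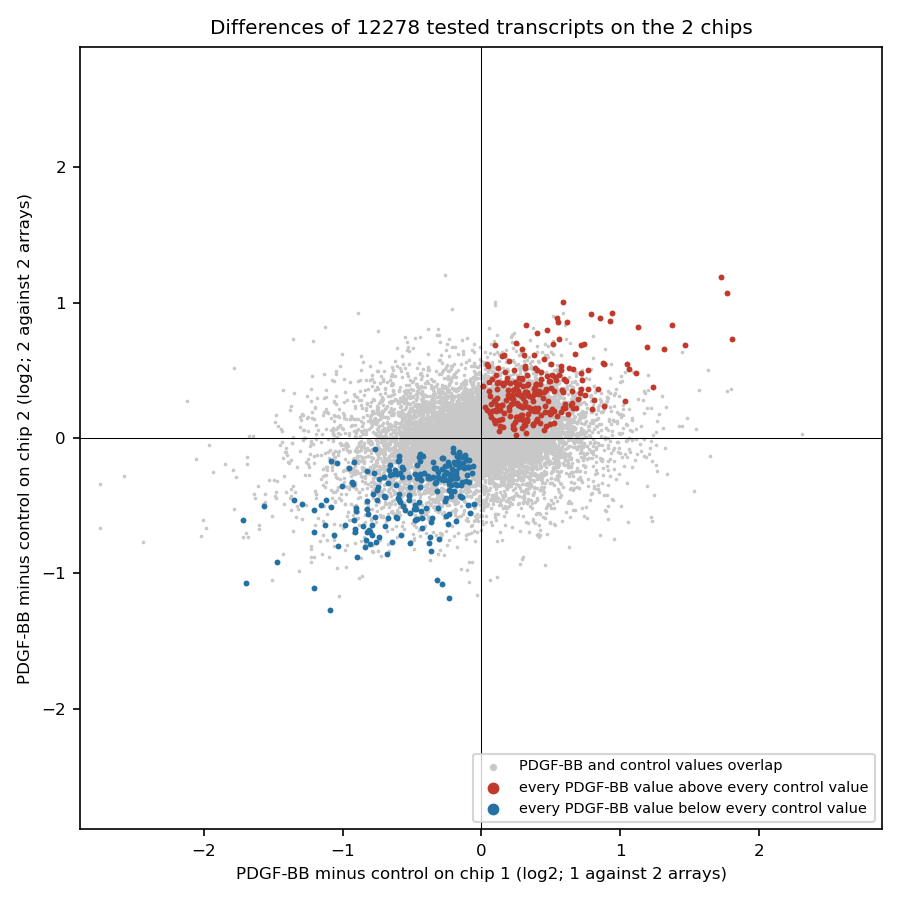
Difference of PDGF-BB-treated from control cells on chip 1 (x axis, log2) against chip 2 (y axis, log2) for each of the 12278 tested transcripts. Red and blue points are the 238 transcripts with all 3 PDGF-BB values above, and the 208 with all below, the 4 control values. The grey cloud is wider along the chip 1 axis, where 1 PDGF-BB array stands against 2 control arrays.

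In 446 transcripts (3.63%) the values of the 2 groups did not overlap, with every PDGF-BB value above every control value in 238 (1.94%) and below in 208 (1.69%). If the labels carried no information, a transcript would separate the groups fully, in either direction, with a probability of 0.0571. That is the smallest possible value of the exact permutation test for these group sizes. The share of 3.63% is below it, so a lack of overlap, here and below, is a description and does not by itself mark a transcript. Of the 446, 181 had an unadjusted p under 0.05, and 435 also did not overlap in the authors' own normalized signals. With any 1 array left out, so that fewer values were compared, 630 to 1580 transcripts did not overlap. They were somewhat dimmer than the average transcript, with a median log2 signal of 8.15 against 8.40 for all tested. Many genes carry several probes, which gives a second reading of the same flasks. Of 199 genes with more than 1 tested probe and at least 1 without overlap, only 2 had all their probes without overlap in 1 direction, Per2 and Pramel37. Pramel37, of a large gene family made in germ cells, was at -0.71 and -0.45 in its probes.

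The largest differences upward were in Rchy1 and Ctcfl. Rchy1 encodes a RING ubiquitin ligase that acts on p53, and its probe had log2 signals of 8.76, 8.35 and 7.74 in PDGF-BB-treated cells, against 7.06, 7.0, 6.27 and 7.44 in control cells. All 3 treated flasks were above all 4 control flasks, by 1.34 on the log2 scale or 2.53-fold (SE 0.39, 95% interval 0.50 to 2.19, adjusted p = 0.9999, limma). The other Rchy1 probe, of higher signal, gave -0.14 (95% interval -0.50 to 0.23), so the 2 probes of this gene disagreed. Ctcfl, a paralogue of the insulator protein CTCF that is normally made in the testis, had 9.26, 8.99 and 8.22 in PDGF-BB-treated cells, against 7.23, 7.75, 7.22 and 7.85 in control cells. Its log2 fold change was 1.31 (SE 0.39, adjusted p = 0.9999), and it has no other tested probe. In both transcripts PDGF-BB 1 held the highest value of the 7 arrays.

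Tapbp had the highest signal of the 12 genes higher with PDGF-BB. It encodes tapasin, which loads peptides onto MHC class I molecules, and read 9.33, 9.11 and 8.85 in PDGF-BB-treated cells, against 7.72, 8.68, 7.68 and 8.64 in control cells. The log2 fold change was 0.92 (SE 0.26, 95% interval 0.35 to 1.48, adjusted p = 0.9999, limma), and the control flasks fell into a low pair and a high pair, with control 1 and 3 low. The other Tapbp probe was at 0.32 (SE 0.25) with overlapping groups. Plekhg2, a guanine nucleotide exchange factor, had 7.0, 6.02 and 6.22 in PDGF-BB-treated cells, against 5.74, 5.33, 5.58 and 5.29 in control cells (log2 fold change 0.93, SE 0.22), with detection on 3 of 3 PDGF-BB and 1 of 4 control arrays. Its other probes, both of higher signal, gave 0.10 and 0.11. Pomgnt1, which adds a sugar to O-mannose on dystroglycan, was at 0.79 (SE 0.23) with detection on 3 of 3 PDGF-BB and 2 of 4 control arrays, and its second probe at 0.02. Nanos2, a germ cell RNA-binding protein, was at 0.86 (SE 0.24), with detection on the same numbers of arrays.

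The remaining 6 of the 12 genes at the top were detected on every PDGF-BB array and on no control array, so the ratio is a lower bound. It is the mean of the brighter group over the lowest signal that still counted as detected, or over the probe's own signal where that was higher. Defb15, a β-defensin, had 6.84, 6.12 and 5.89 in PDGF-BB-treated cells, against 4.99, 5.07, 5.40 and 5.14 in control cells, and was at least 1.49-fold higher (adjusted p = 0.855, limma). Rps23rg1, a retrogene of the ribosomal protein gene Rps23, had 6.34, 6.27 and 6.01 in PDGF-BB-treated cells, against 4.92, 5.0, 4.97 and 5.64 in control cells, and was at least 1.41-fold higher. It had the lowest adjusted p of the comparison (0.752), and since it resembles Rps23 its level is uncertain. Clcf1, a cytokine of the interleukin-6 family, had 6.48, 5.70 and 6.20 in PDGF-BB-treated cells, against 5.26, 5.30, 4.96 and 5.59 in control cells (at least 1.34-fold). The testis histone gene H2al1m was at least 1.64-fold higher, and the olfactory receptor genes Olfr168 and Olfr1161 at least 1.53-fold and 1.32-fold. These 3 belong to multigene families whose members resemble each other. The groups did not overlap in any of the 6, and all 6 had a mean signal below the 25th percentile of the tested transcripts.

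Among transcripts without overlap, the largest difference downward was in Hmmr, a receptor for hyaluronan that also binds the mitotic spindle. It had 4.83, 5.93 and 6.32 in PDGF-BB-treated cells, against 6.72, 6.34, 7.47 and 6.92 in control cells, a log2 fold change of -1.17 (SE 0.45, 95% interval -2.15 to -0.19, adjusted p = 0.9999, limma). The gap between the groups was narrow, since PDGF-BB 3 lay just under control 2, and the other Hmmr probe was at -0.17. Erich5 had the highest signal of the 12 genes, at 9.07, 9.86 and 9.94 in PDGF-BB-treated cells and 10.31, 10.01, 11.37 and 10.96 in control cells (log2 fold change -1.04, SE 0.32). Cntln, which encodes the centriole protein centlein, had 5.40, 6.24 and 6.40 in PDGF-BB-treated cells, against 7.49, 6.75, 7.09 and 6.75 in control cells. Its log2 fold change was -1.01 (SE 0.24), and PDGF-BB 1 was the lowest in all 3 of these genes.

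Dclk1, a microtubule-binding kinase, had closely spaced values within each group. It had 5.39, 5.31 and 5.37 in PDGF-BB-treated cells, with detection on none, against 6.06, 6.25, 6.0 and 6.22 in control cells, with detection on all 4. The level was at least 1.32-fold lower in PDGF-BB-treated cells (adjusted p = 0.855, limma). Per2, a repressor of the circadian clock, had 6.90, 7.42 and 6.99 in PDGF-BB-treated cells, against 7.83, 7.78, 8.28 and 7.51 in control cells (log2 fold change -0.75, SE 0.21). Its second probe had 7.33, 7.58 and 7.92 in PDGF-BB-treated cells, against 8.0, 7.99, 8.20 and 7.96 in control cells (-0.43, SE 0.17). Both Per2 probes kept the groups apart, though PDGF-BB 3 came close to control 4 at the second.

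Miga1, which promotes mitochondrial fusion, was at -1.08 (SE 0.28), the F-box protein gene Fbxl18 at -0.95 (SE 0.25) and the ubiquitin ligase gene Rnf125 at -0.87 (SE 0.21). Aggf1, an angiogenic factor, and Mob4, a subunit of the STRIPAK phosphatase complex, were both at -0.82 (SE 0.21 and 0.24). Hook1, which links cargo to dynein, was at -0.79 (SE 0.23) and Efcab14 at -0.78 (SE 0.20). The adjusted p was 0.9999 for each of these 7 in limma. Miga1, Fbxl18 and Hook1 were detected on 1 of 3 PDGF-BB and 4 of 4 control arrays, so their treated level is mostly at background. Aggf1 and Mob4 have brighter probes at 0.01 and -0.14, and 4 further Efcab14 probes lay between -0.67 and -0.01. Over the 24 genes, 11 had another tested probe, 15 probes in all. In 9 of the 11 genes every other probe lay on the same side of 0 as the named one, which was picked for its size on these flasks. Of the 15 probes, 13 lay on that side, 4 of them of Efcab14, and 1, that of Per2, kept the groups apart. Over all tested genes with exactly 2 probes, both lay on the same side of 0 in 59.4%, and 3.63% of all transcripts did not overlap. Of the 24 named probes, 18 were below the 25th percentile of signal.

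**Figure D2:**
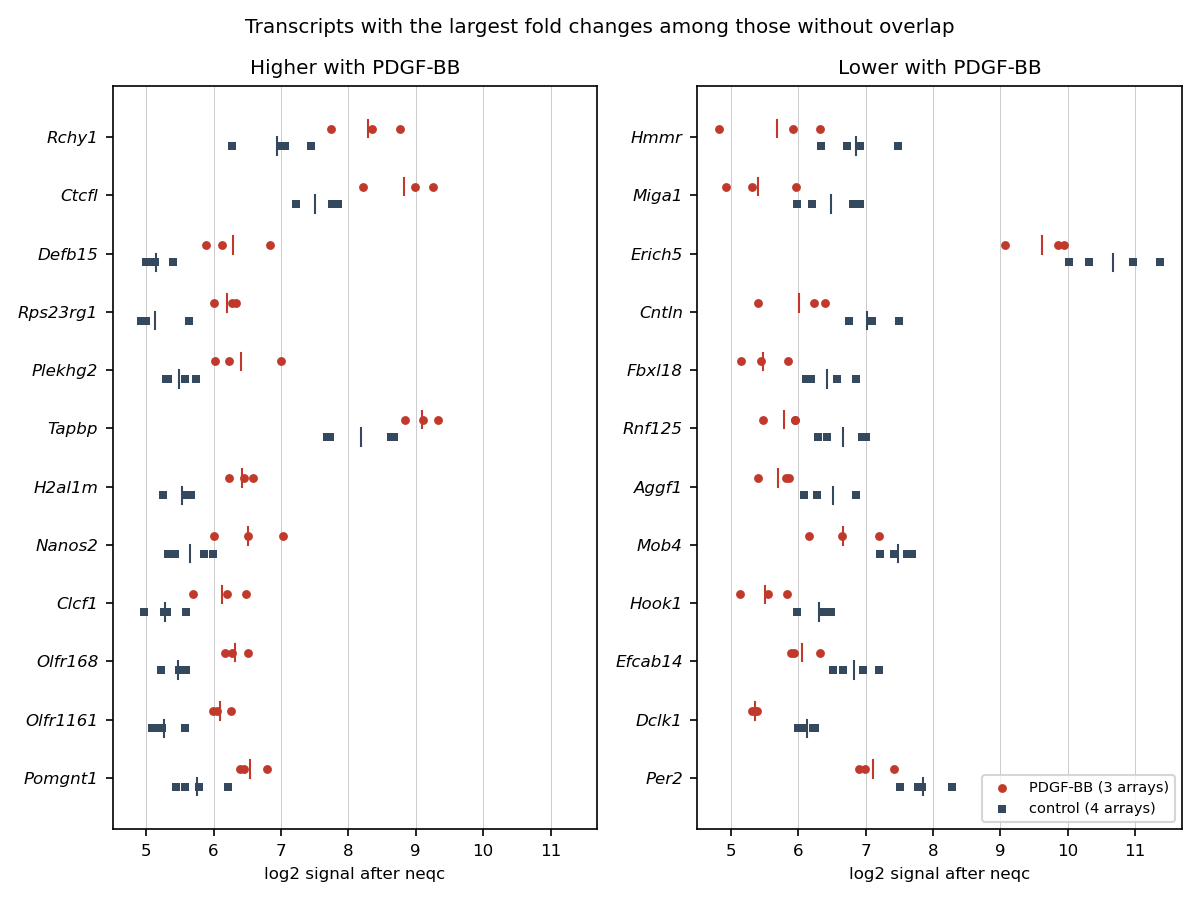
Log2 signal on each array (x axis) of the 12 transcripts with the largest fold change in each direction among those without overlap. Red circles are the 3 PDGF-BB arrays, dark squares the 4 control arrays and vertical strokes the group means. Erich5, between 9.07 and 11.37, has the highest signal, and most of the others lie near the left edge, close to the detection limit.

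Detection differed wholly between the groups in few transcripts. Of 25697 probes, 10190 were detected on all 7 arrays and 11037 on none, while 16 were detected on all PDGF-BB and no control arrays and 14 on all control and no PDGF-BB arrays. Beside the genes above, the first set included Orc2, a subunit of the origin recognition complex and named after its values were seen, with 5.85, 5.87 and 5.91 in PDGF-BB-treated cells, against 5.42, 5.04, 5.05 and 5.02 in control cells (at least 1.13-fold higher). A second, brighter Orc2 probe was at 0.25 (SE 0.18) with overlapping groups. The second set included St8sia4, which makes polysialic acid and was at least 1.23-fold lower in PDGF-BB-treated cells. Parm1 was at least 1.27-fold lower, Tmem168 1.28-fold, AI429214 1.27-fold and H2-M3, a class Ib MHC molecule, 1.12-fold. The lowest signal that counted as detected lay between 5.64 and 5.80 on the 7 arrays, so these are transcripts at the limit of the method.

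The promoters of 7 of these genes are shown because several regulators placed in the PDGF response bind short, known words of DNA. The 120 bases before the start site are given for 2 genes higher with PDGF-BB (Plekhg2 and Tapbp), 2 lower (Cntln and Dclk1), the RAS inhibitor gene Rasa1 and 2 tRNA synthetase genes of the ATF4 list (Mars1 and Sars). Capitals mark CCGGAAG (the ETS core, bound by ELK1), TGACTCA (AP-1, bound by JUN and FOS), GGGCGG (the GC box, bound by SP1) or CACGTG (the E-box, bound by MYC), searched on both strands. The sequences are from RefSeq, build GRCm38.p6, and each runs 5′ to 3′ on the strand of its gene. The genes were picked for holding such a word. They lie at chr7:28372663-28372782 (Plekhg2, minus strand), chr17:33919358-33919477 (Tapbp, plus strand), chr4:84884189-84884308 (Cntln, plus strand), chr3:55461608-55461727 (Dclk1, plus strand), chr13:85289487-85289606 (Rasa1, minus strand), chr10:127311787-127311906 (Mars1, minus strand) and chr3:108445260-108445379 (Sars, minus strand). Dclk1 has 2 listed starts, of which the one with a match is shown.
Plekhg2: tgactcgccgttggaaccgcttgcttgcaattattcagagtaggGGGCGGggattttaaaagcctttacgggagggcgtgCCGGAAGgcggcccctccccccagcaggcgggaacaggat
Tapbp: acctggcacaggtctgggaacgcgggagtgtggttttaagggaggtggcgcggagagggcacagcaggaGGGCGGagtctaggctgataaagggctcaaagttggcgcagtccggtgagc
Cntln: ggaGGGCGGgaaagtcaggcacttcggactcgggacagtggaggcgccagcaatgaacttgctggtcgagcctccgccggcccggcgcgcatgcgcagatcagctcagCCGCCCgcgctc
Dclk1: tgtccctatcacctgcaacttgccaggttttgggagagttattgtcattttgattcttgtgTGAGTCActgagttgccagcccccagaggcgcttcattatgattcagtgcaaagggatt
Rasa1: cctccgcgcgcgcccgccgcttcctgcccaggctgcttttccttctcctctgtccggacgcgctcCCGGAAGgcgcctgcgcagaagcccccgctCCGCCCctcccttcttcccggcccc
Mars1: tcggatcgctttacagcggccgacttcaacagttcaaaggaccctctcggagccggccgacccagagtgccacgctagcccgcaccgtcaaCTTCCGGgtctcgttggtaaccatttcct
Sars: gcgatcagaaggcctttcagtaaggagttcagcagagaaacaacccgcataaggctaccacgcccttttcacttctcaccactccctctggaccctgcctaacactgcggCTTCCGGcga

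The GC box is common and the other words less so. In the 250 bases before the start, which were found for 6852 of the 8351 tested genes, the ETS core stood in 14.92% of the genes higher without overlap (181 with a promoter), in 14.19% of those lower (155) and in 16.4% of all tested. AP-1 stood in 1.66% of the higher genes, 4.52% of the lower and 3.94% of all tested, the GC box in 66.85%, 66.45% and 64.87%, and the E-box in 16.02%, 9.03% and 10.26%. Plekhg2 and Rasa1 each hold an ETS core and a GC box, Cntln a GC box at either end, and Dclk1 an AP-1 word. A word in a promoter is a match of letters and says nothing of binding in these cells.

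Ligands and receptors of the PDGF family were mostly under detection. Pdgfrb and Pdgfra, which encode the receptors for PDGF-BB, were detected on 0 of the 7 arrays, with lowest detection p-values of 0.425 and 0.672. Of the ligand genes, Pdgfd was detected on none, Pdgfc on 1 PDGF-BB array and Pdgfb on 1 array of each group at 1 of its 2 probes. Pdgfa, which encodes the A chain, was well detected at 10.65, 10.93 and 10.76 in PDGF-BB-treated cells, against 11.16, 10.88, 10.64 and 10.75 in control cells, a log2 fold change of -0.08 (95% interval -0.46 to 0.31). Pdgfrl, a receptor-like protein without a kinase, was near the limit at -0.14 (95% interval -0.58 to 0.30). A detection p above the threshold on 1 probe does not show that the receptors were missing.

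Downstream of the receptors, members lay on both sides of 0. Of 16 tested genes of the receptor adaptors and RAS-ERK pathway, 7 lay above and 9 below 0, of 22 in the PI3K-AKT-mTOR pathway 11 and 11, against 47.8% of all transcripts below 0. Rasa1, a GTPase-activating protein that binds the PDGF receptor and turns RAS off, had 8.80, 9.22 and 9.40 in PDGF-BB-treated cells, against 9.88, 9.39, 10.32 and 9.27 in control cells (log2 fold change -0.57, SE 0.26). Akt2, a kinase of the PI3K pathway, had 6.21, 6.0 and 6.51 in PDGF-BB-treated cells, against 6.01, 5.70, 5.59 and 5.82 in control cells (0.46, SE 0.20). The groups overlapped in both genes, through control 2 and 4 for Rasa1 and control 1 for Akt2. Pik3ca, the catalytic subunit p110α, was at -0.81 (SE 0.38), with PDGF-BB 1 at 5.32 and the other 6 arrays between 6.99 and 7.55, and on chip 2 its difference was -0.16. Rps6ka3, a kinase activated by ERK, was at 0.44 (SE 0.22), Stat5a at 0.30 (SE 0.16) and Rheb, which activates mTOR, at -0.34 (SE 0.16). All had an adjusted p of 0.9999 in limma.

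Immediate-early genes, the first transcripts that growth factors induce, were tested for 16 of 28 on the array, and 8 lay above and 8 below 0 with a median of 0.01. Fos had 8.30, 7.95 and 8.69 in PDGF-BB-treated cells, against 8.62, 8.22, 8.49 and 8.05 in control cells (-0.03, 95% interval -0.56 to 0.50). Junb was at 0.26 (SE 0.24), Jun at 0.10 (SE 0.25) and Jund at -0.06 (SE 0.27), and in each the groups overlapped. Klf6, a zinc-finger factor, had 7.15, 8.67 and 8.73 in PDGF-BB-treated cells, against 9.79, 7.72, 9.98 and 8.71 in control cells, with an SE of 0.49 on its log2 fold change of -0.86. The control flasks alone spanned a wider range than the difference. Ccn1, a secreted matricellular protein, was at -0.39 (SE 0.20) and Ier3 at 0.25 (SE 0.15). Of the genes of other regulators in the study's PDGF-BB network, the AP-1 subunit genes Fosb and Fosl1, chosen here to stand for AP-1, were detected on 0 of the 7 arrays, Myc and Sp1 on 2 at most, and Elk1 and the AP-1 subunit gene Fosl2 had no probe.

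The feedback regulators of ERK, which such signalling normally induces, were split 6 and 6 (median -0.01). Dusp7, an ERK phosphatase, had 7.76, 8.42 and 8.17 in PDGF-BB-treated cells, against 8.90, 8.14, 9.07 and 8.68 in control cells (-0.58, SE 0.22), where control 2 was below 2 of the treated flasks. Dusp3, another phosphatase of this family, was higher without overlap, at 6.74, 6.71 and 7.10 in PDGF-BB-treated cells, against 6.63, 6.21, 6.31 and 6.46 in control cells (0.45, SE 0.22). Spred1, an inhibitor of RAF activation, was at -0.27 (SE 0.24).

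**Figure D3:**
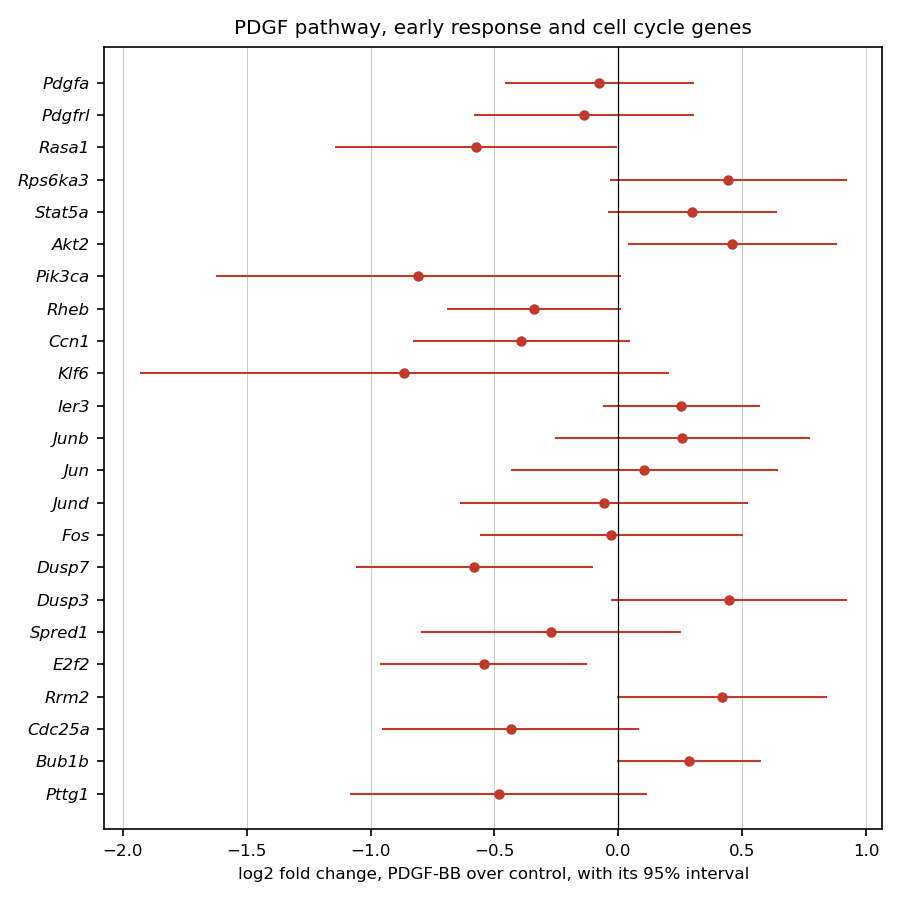
Log2 fold change of PDGF-BB-treated over control cells (x axis, 3 against 4 arrays) with its 95% interval for genes of the PDGF pathway, the early response and the cell cycle. Most intervals cross 0, those of Rasa1, Akt2, Dusp7 and E2f2 do not, and none passed the adjustment over all transcripts.

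Cell cycle genes lay on both sides of 0. In the list of G1/S and DNA replication, 25 of 49 lay above 0 and 24 below (median 0.01), and in G2/M and mitosis 15 and 16 of 31 (median -0.01). Rrm2, the ribonucleotide reductase subunit that rises in S phase, had 11.18, 11.45 and 11.32 in PDGF-BB-treated cells, against 11.05, 10.92, 10.58 and 11.05 in control cells (0.42, SE 0.20), without overlap, while its second probe was at 0.12 (SE 0.18). E2f2, an activator of S-phase genes, had 8.53, 8.77 and 8.85 in PDGF-BB-treated cells, against 9.39, 8.79, 9.66 and 9.20 in control cells (-0.54, SE 0.19). The overlap rests on control 2, and the second E2f2 probe gave nearly the same value (-0.52, SE 0.21). Bub1b, of the spindle checkpoint, was slightly higher without overlap, at 9.23, 8.92 and 9.03 in PDGF-BB-treated cells, against 8.72, 8.82, 8.76 and 8.80 in control cells (0.28, SE 0.13). Cdc25a, a phosphatase that activates CDK2, was at -0.44 (SE 0.24) and the securin gene Pttg1 at -0.48 (SE 0.28). Of the CDK inhibitors, p53 and RB genes, 13 of 19 lay above 0 (median 0.07), with Gadd45b at 0.27 (SE 0.19). Of 18 genes of the BCL2 family and apoptosis 10 lay below 0 (median -0.07), with the lowest unadjusted p of the list in Birc2 at -0.35 (SE 0.19).

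The energy-producing genes lay more often below 0 than above. Of 75 tested genes of oxidative phosphorylation, 57 lay below 0 and 18 above, with a median of -0.06, against 0.01 for all tested transcripts, of which 47.8% lay below 0. Complex I had 26 of 33 below 0, complexes II and III 9 of 11, complex IV 11 of 15 and ATP synthase 11 of 16, and 36 of the 75 were below 0 on both chips while 9 were above on both. On single flasks the groups overlapped. The median deviation of the 75 genes from the control mean was -0.04, -0.11 and -0.05 on the PDGF-BB arrays, against -0.05, 0.01, 0.12 and -0.07 on the control arrays, so only PDGF-BB 2 was below all 4 control flasks. Control 3 had the highest median, and the 75 genes are readings of the same 7 flasks.

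Within complex IV, Cox6c had 11.98, 12.87 and 12.99 in PDGF-BB-treated cells, against 13.38, 13.33, 13.91 and 12.83 in control cells (-0.75, SE 0.29, 95% interval -1.39 to -0.12), with control 4 below 2 of the treated flasks. Cox6b2, a form described in testis, was lower without overlap, at 5.60, 6.15 and 6.20 in PDGF-BB-treated cells, against 6.38, 7.12, 6.52 and 6.82 in control cells (-0.73, SE 0.24). These 2 were the only genes of the 75 at an unadjusted p under 0.05 (0.024 and 0.0104 in limma), against 3.21% of all transcripts, and both had an adjusted p of 0.9999. Cox7a2 was at -0.45 (SE 0.21), Ndufa1 at -0.41 (SE 0.21) and Uqcrb at -0.29 (SE 0.24). Ppargc1a, the coactivator that drives mitochondrial biogenesis, had 8.04, 9.03 and 9.09 in PDGF-BB-treated cells, against 9.79, 8.42, 9.99 and 9.64 in control cells (-0.74, SE 0.34). Its relative Ppargc1b was at -0.52 (SE 0.29), and in both genes control 2 was the lowest control flask and lay within or below the range of the treated flasks.

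The ribosomal protein genes had medians of a similar size. Of 54 cytosolic ribosomal protein genes 33 lay below 0 (median -0.05), and of 69 mitochondrial ribosomal protein genes 41 (median -0.06). Rpl38 had 14.08, 14.75 and 14.60 in PDGF-BB-treated cells, against 14.81, 14.76, 15.13 and 14.74 in control cells (-0.38, SE 0.20). PDGF-BB 1 was the lowest of the 7 arrays. Rpl27a was at -0.35 (SE 0.17), Rpl23 at -0.34 (SE 0.18) and Mrpl33 at -0.43 (SE 0.22). Ribosomal protein genes have many processed copies in the genome, so their probes may read more than 1 locus.

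**Figure D4:**
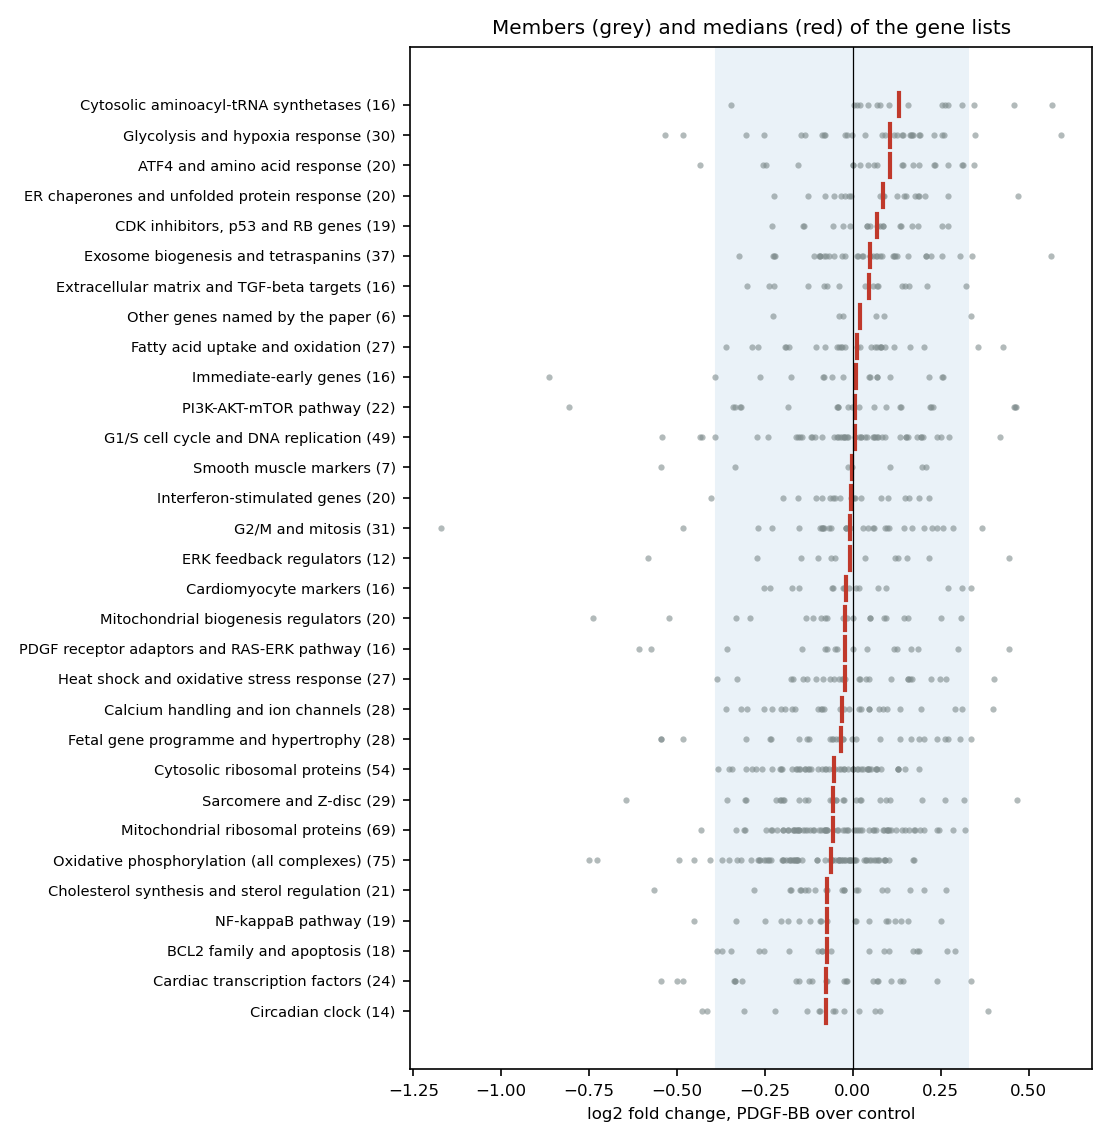
Log2 fold change of PDGF-BB-treated over control cells (x axis) of each tested member (grey points) and the median (red stroke) of 31 gene lists, with the number of tested genes in parentheses. The shaded band spans the middle 90% of all tested transcripts, -0.39 to 0.33, and every median drawn lies between -0.08 and 0.13. Lists with few tested genes are left out. The respiratory complexes are drawn as 1 list, of which complexes II and III alone have a median of -0.16.

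The lists of glycolysis, of the ATF4 response and of the endoplasmic reticulum chaperones had medians above 0. Of 30 genes of glycolysis and the hypoxia response 18 lay above 0 (median 0.10). Pgk1, a glycolytic kinase, had 7.57, 7.21 and 7.23 in PDGF-BB-treated cells, against 6.76, 6.79, 6.20 and 7.23 in control cells (0.59, SE 0.25), with control 4 inside the treated range. Pfkp was at 0.35 (SE 0.17), while Vegfa, a target of the hypoxia factor HIF1, was at -0.48 (SE 0.23). Of 20 genes of the ATF4 and amino acid response 15 lay above 0 (median 0.10), and of 20 genes of the endoplasmic reticulum chaperones and unfolded protein response 12 (median 0.09, which ran from 0.01 to 0.20 over the alternatives). Edem1, which takes misfolded glycoproteins to degradation, was higher without overlap, at 7.19, 6.48 and 6.78 in PDGF-BB-treated cells, against 6.46, 6.38, 6.16 and 6.37 in control cells (0.47, SE 0.19). Mars1, the methionyl-tRNA synthetase, also did not overlap, at 10.47, 10.29 and 10.33 in PDGF-BB-treated cells, against 9.92, 10.14, 9.74 and 10.29 in control cells (0.35, SE 0.18), though PDGF-BB 2 exceeded control 4 by less than the decimals shown. The list medians did not stand apart on every flask. For the ATF4 list they were 0.24, -0.26 and 0.23 on the PDGF-BB arrays, against -0.003, 0.10, 0.02 and -0.16 on the control arrays, and for glycolysis 0.23, -0.11 and 0.07 against -0.08, 0.06, -0.02 and 0.08.

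**Figure D5:**
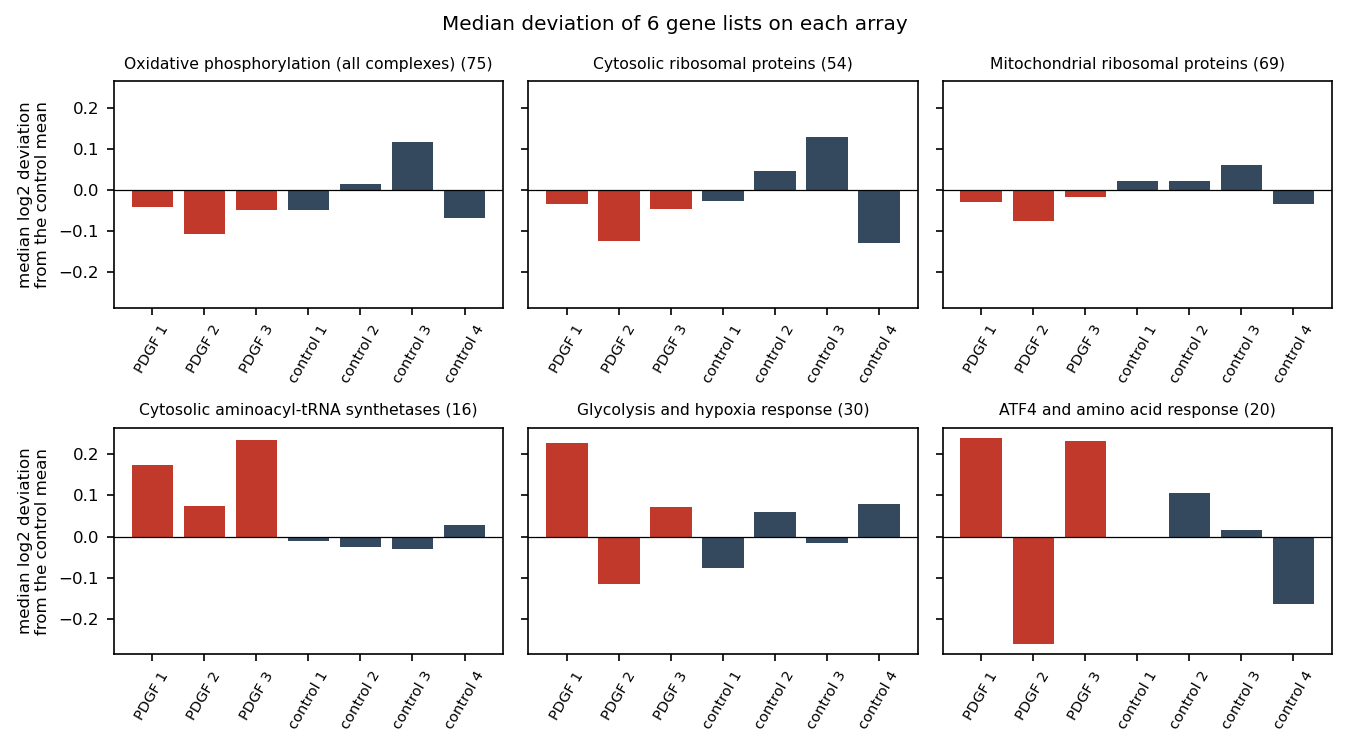
Median log2 deviation from the control mean (y axis) of 6 gene lists on each of the 3 PDGF-BB arrays (red) and 4 control arrays (dark), with the number of tested genes in parentheses. For oxidative phosphorylation and the ribosomal lists the red bars lie within or just below the dark ones, and for the tRNA synthetases, a list chosen after values were seen, all 3 red bars lie above the dark ones.

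The contractile and regulatory genes of the cardiomyocyte lay on both sides of 0. Of 29 tested sarcomere and Z-disc genes 19 lay below 0 (median -0.06). Tcap, which anchors titin at the Z-disc, had closely spaced treated values, with 9.74, 9.70 and 9.70 in PDGF-BB-treated cells, against 9.28, 9.46, 9.33 and 9.53 in control cells, and no overlap (0.32, SE 0.14, adjusted p = 0.9999, limma). Ldb3, another Z-disc protein, was at 0.47 (SE 0.21) and Ttn, which encodes titin, at -0.36 (SE 0.20). Of 24 cardiac transcription factors 16 lay below 0 (median -0.08). Myocd, the coactivator of serum response factor in heart and smooth muscle, had 9.40, 10.29 and 9.96 in PDGF-BB-treated cells, against 10.95, 9.79, 10.76 and 10.21 in control cells (-0.54, SE 0.28), with overlap through control 2. Gata4 was at 0.34 with an SE of 0.36. Of 28 fetal and hypertrophy genes 17 lay below 0 (median -0.03), with Nfatc3, a target of calcineurin, at -0.55 (SE 0.27) and Csrp3 at -0.30 (SE 0.17). The natriuretic peptide genes Nppa and Nppb, which are outside the rule for named genes, were at -0.24 (SE 0.16) and 0.27 (SE 0.21). Of 28 genes of calcium handling and ion channels 16 lay below 0, with Atp1b1, a subunit of the sodium pump, higher without overlap by 0.19 (SE 0.13).

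In cell RNA, no gene of exosome biogenesis and none of the genes named in the study's exosome work passed the test. The study looked at CD63, TSG101 and GRP78 as proteins, and at NFAT5 and HDAC5 as transcripts of the exosomes. Of 37 tested genes of exosome biogenesis and tetraspanins 23 lay above 0 (median 0.05). Cd63, a tetraspanin of exosomes, was at 0.07, 0.07 and -0.05 in its 3 probes, with SEs of 0.20, 0.24 and 0.16. Tsg101, of the ESCRT-I complex, had 9.98, 9.93 and 10.38 in PDGF-BB-treated cells, against 10.31, 10.47, 10.53 and 9.98 in control cells (-0.23, SE 0.18). Vps37c, of the same complex, was at 0.56 (SE 0.28) at low signal. Hspa5, the chaperone known as GRP78, was at 0.09 with an SE of 0.38. Nfat5, a transcription factor, was at -0.03 (SE 0.17) and 0.07 (SE 0.23) in 2 probes, and Hdac5, a histone deacetylase, at -0.04, 0.09 and 0.14.

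The other lists had members on both sides of 0. Of 16 tested extracellular matrix and TGF-β target genes 9 lay above 0, with Smad6, an inhibitory SMAD, higher without overlap by 0.21 (SE 0.17), and of 20 interferon-stimulated genes 11 lay below 0, with Stat2 at -0.40 (SE 0.22). Of 27 genes of fatty acid oxidation 14 lay above 0, with Decr1 at 0.43 (SE 0.20), and of 21 cholesterol genes 14 lay below, with Stard4, a sterol carrier, at -0.57 (SE 0.33). Of 19 NF-κB genes 10 lay below 0, with Ikbkb at -0.45 (SE 0.27), and of 27 heat shock and oxidative stress genes 14, with the chaperonin Hspd1 at -0.39 (SE 0.24). In all lists together, 0 of 741 tested genes passed the adjusted p in limma.

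The named genes were also read in the cells given TGF-β2, which share the control arrays with this comparison. They were picked for the size of their difference with PDGF-BB, so smaller differences with TGF-β2 follow in part from that choice. Against control cells, Rchy1 was at 1.34 with PDGF-BB and -0.29 with TGF-β2, and Ctcfl at 1.31 and -0.34. Tapbp was at 0.92 and 0.17, and Plekhg2 at 0.93 and 0.59. Among the lower genes, Hmmr was at -1.17 with PDGF-BB and -0.24 with TGF-β2, Erich5 at -1.04 and 0.16, Cntln at -1.01 and 0.06, and Hook1 at -0.79 and -0.48. Between the growth factors themselves 0 transcripts (0%) passed an adjusted p under 0.05 in limma and 622 (5.07%) had an unadjusted p under 0.05, and the log2 difference of PDGF-BB from TGF-β2 was 1.63 for Rchy1 and 1.65 for Ctcfl (adjusted p = 0.646 for both).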

How the data were processed

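RNA of HL-1 cells was hybridized in 1 colour to Illumina MouseRef-8 beadchips. Per probe, the authors deposited a signal intensity before normalization, its detection p-value and its bead count, and also an intensity normalized by cubic spline, as the study's methods state. GenomeStudio is the tool named in the submitters' processing notes, where it has no version. The deposited intensities are linear, and log2 was taken here. In limma 3.58.1 (R 4.3.3), neqc modelled the background of all 11 arrays with the detection p-values as input, then added 16 and quantile-normalized, so that fold changes of dim probes are understated. The 12278 probes detected (p below 0.05) on 3 or more of the 7 arrays were fitted with 1 mean per group over 11 arrays (lmFit, eBayes) and adjusted by Benjamini-Hochberg. The median bead count was 35 to 38 per probe on the 7 arrays, and the number of arrays limits the precision. Single values per array were compared by an exact permutation test. Groups and replicate numbers come from the sample labels. All flasks are of 1 line, so p-values measure the spread between flasks.

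Gene names come from GEO's annotation of the array (1 symbol for 23978 probes, several for 0, none for 1719), with 23962 symbols brought up to date by Entrez identifier. Each gene entered its list with its tested probe of highest mean signal. The 37 lists hold 1029 genes, 919 on the array and 741 tested. Lists of tRNA synthetases and clock genes were added after values were seen. The members, lists and tests were chosen with earlier results of these data known. The rule for named genes took the 12 largest fold changes in each direction among transcripts without overlap detected on every array of the higher group, up to 3 genes of lowest unadjusted p per list, the PDGF family, genes the paper names and transcripts detected in 1 group only. Genes outside it are said to be so where named. Python 3.11.15 with pandas 2.3.3 searched the promoters and matplotlib 3.10.9 drew the figures. The fit was tested on simulated data. The alternatives were the authors' normalized intensities, other background models, offsets and filters, the 7 arrays alone, each chip alone, blocks for chip, part of a chip and replicate number, array weights, and each array left out.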

Additional observations from a re-analysis of the deposited data

Results flagged for a closer look

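In each of 46 sets of values on the 4 control arrays, the gap between the outermost array and its neighbour was divided by the range of the 4. This ratio was past Dixon's 95% critical value in 2 sets, and chance marks about 1 in 20. Rps23rg1, the transcript of lowest adjusted p, had control values of 4.92, 5.0, 4.97 and 5.64, where control 4 stood apart with a ratio of 0.888. It was detected on no control array and entered the test through the PDGF-BB arrays alone, so its adjusted p of 0.0421 in limma without control 4 is given as a description. Rpl38 had control values of 14.81, 14.76, 15.13 and 14.74, where control 3 stood apart with a ratio of 0.831. The 3 PDGF-BB arrays were not tested in this way, being too few.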

How the results depend on the processing

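No transcript was called under the 12 alternatives that left out no single array, and leaving out 1 array gave 0 calls, or 1 without control 4 (Rps23rg1, detected on no control array). The count at an unadjusted p under 0.05 was 951 with no filter, 255 with detection at p under 0.01 on all 7 arrays, 848 with a chip block, 899 on chip 1 alone, 1096 with a block for each part of a chip (positions A to C or E to G), 796 with a replicate block and 944 with array weights, and 194 to 706 with 1 array left out. Transcripts without overlap numbered 1159 with no filter, 1167 with a chip block, 3504 on chip 2, 9020 on chip 1, 1989 with the chip-part block and 1500 with the replicate block, and 630 to 1580 with 1 array left out, where fewer arrays are compared. Transcripts whose log2 fold change reached 1 in size numbered 50 in the authors' intensities, 3 with an offset of 50, 4 with that offset and no background model, 3 with the stricter filter, 24 with a chip block, 30 on chip 2, 237 on chip 1, 36 with the chip-part block and 23 with the replicate block, and 3 to 66 with 1 array left out. The causes of these shifts were otherwise not tested. Same-numbered PDGF-BB and control arrays deviated from their group means with correlations of -0.14, -0.46 and 0.20. The arrays numbered 2 lie on different chips, so the numbers do not follow the layout. Arrays on the same part of a chip had correlations of -0.14 (PDGF-BB 1 and control 1), 0.25 (PDGF-BB 2 and control 3) and 0.06 (PDGF-BB 3 and control 4). The highest correlation of any PDGF-BB and control array was 0.56, for PDGF-BB 1 and control 2, which share chip 1. So few pairs cannot decide whether flasks were paired, and the replicate block and the chip-part block each gave 0 calls. The 43 named transcripts kept their sign under every alternative that tested them (15 to 19 each). They were chosen on these same arrays, 24 of them because the groups did not overlap, so this outcome was largely fixed by the choice. Of 665 list medians under alternatives, 62 moved by more than 1 SD of the control arrays. The median of oxidative phosphorylation stayed below 0 (-0.11 to -0.06) and those of the synthetases (0.08 to 0.24) and the endoplasmic reticulum list (0.01 to 0.20, moved under 12 of 19 alternatives) above, whereas the clock median ran from -0.14 to 0.03 and that of glycolysis from -0.0007 to 0.23. Low signal limits the dim transcripts.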

Other observations

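The cytosolic aminoacyl-tRNA synthetases, which charge tRNAs with amino acids, lay above 0 in 15 of the 16 genes tested (median 0.13), a list chosen after values were seen and given with no test. Vars, the valyl-tRNA synthetase, had 11.26, 10.70 and 10.98 in PDGF-BB-treated cells, against 10.29, 10.70, 10.10 and 10.56 in control cells (0.57, SE 0.19). The groups were kept apart by less than the decimals shown, and the other Vars probes were at 0.33 and -0.03. Farsb, a subunit of the phenylalanyl-tRNA synthetase, had 11.84, 11.74 and 11.85 in PDGF-BB-treated cells, against 11.60, 11.61, 11.66 and 11.73 in control cells (0.16, SE 0.17), without overlap, while its second probe overlapped at 0.13. Sars was at 0.31 (SE 0.19) and Kars at 0.25 (SE 0.18). Eprs, the gene below 0, was at -0.35 (SE 0.26), and its dimmer probe at -0.68. The median deviation of the 16 genes was 0.17, 0.07 and 0.23 on the PDGF-BB arrays, against -0.01, -0.02, -0.03 and 0.03 on the control arrays.

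Of 14 tested clock genes, also chosen after values were seen, 10 lay below 0 (median -0.08). On chip 2 alone 5 lay below 0 (median 0.03). The median deviation of the 14 genes was -0.14, 0.01 and 0.09 on the PDGF-BB arrays, against 0.04, -0.06, 0.07 and -0.02 on the control arrays, so only PDGF-BB 1 was below all 4 control flasks. Per1, a repressor of the clock like Per2, had 7.06, 7.68 and 7.26 in PDGF-BB-treated cells, against 7.57, 7.67, 8.37 and 7.38 in control cells (-0.41, SE 0.30), and its second probe was also at -0.41. Nr1d1, a nuclear receptor that represses the clock activator Arntl, lay on the other side, at 8.39, 8.20 and 7.96 in PDGF-BB-treated cells, against 7.69, 8.02, 7.55 and 7.94 in control cells (0.38, SE 0.17). Control 2 was inside the treated range, and the dimmer Nr1d1 probe was at 0.52 (SE 0.20).

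A few brighter transcripts were also named after their values were seen. Lmna, which encodes the nuclear lamins A and C, lay above 0 at all 5 of its probes. The brightest had 12.28, 12.04 and 11.99 in PDGF-BB-treated cells, against 11.73, 11.77, 11.38 and 11.75 in control cells (0.45, SE 0.16), without overlap, and the others lay between 0.09 and 0.33. Myd88, an adaptor of Toll-like receptors, has 1 tested probe, with 11.29, 11.34 and 11.22 in PDGF-BB-treated cells, against 11.04, 10.93, 10.68 and 10.81 in control cells (0.42, SE 0.14), without overlap. Sri, which encodes the calcium-binding protein sorcin, was at -0.36, -0.20 and -0.02 in its probes, the first without overlap. None of these passed an adjusted p under 0.05 in limma.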
